A study of Mus musculus with 4 samples.

Results

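Of 23175 transcripts with ribosome footprints in the postnatal day 21 mouse brain, 957 (4.13%) had counts in region a, c or d and a count of 0 in region b, summed over all 4 libraries. Region b is otherwise where footprints lie: it held 91.1% to 92.6% of all counts of a library. The 957 transcripts were chosen by that sum of 0, so the absence of region b counts is the selection and not a result. The cell types played no part in the choice.

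Footprints came from whole brains of C57BL/6J mice at P21 that carry a GFP-tagged ribosomal protein, eGFP-RpL10a. In Snap25::eGFP-RpL10a mice the Snap25 gene, which is active in neurons, drives the tag, and in Aldh1l1::eGFP-RpL10a mice the Aldh1l1 gene, which is active in astrocytes, drives it. There were 2 neuron and 2 astrocyte libraries, each from 2 pooled brains, made in replicate experiments, and spread between them is spread between pools. Ribosomes with the tag were pulled down with GFP antibodies, unprotected RNA was digested with RNase I, and the protected fragments were sequenced. In such bulk samples, fewer cells of a type and less RNA per cell cannot be told apart.

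A translating ribosome shields a short stretch of messenger RNA from RNase, and most shielded stretches lie in the coding sequence. Footprints before the main start codon can come from upstream reading frames, which often hold back translation of the main frame. Footprints after the stop codon can come from ribosomes that read through it, which gives a protein with an extended end. Such alternative translation is what the study's title names. Which part of a transcript each letter marks is not given in the sources used here, so the regions keep their letters. The counts are not divided by region length, so they rank transcripts by depth of measurement and not by level.

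The files give Ensembl transcript IDs, and 0 of the 23175 could be paired with a gene name through the tables used here. The library labels were therefore not checked against Snap25, Aldh1l1 or other marker genes, no gene function can be attached to a transcript, and no sequence is shown. Library totals were 7210269 to 12833187 counts, with the most in neuron 2. The chi-square per degree of freedom between the libraries of a pair was 2.08 for astrocytes and 21 for neurons over all transcripts with at least 10 counts in the pair, and 1.82 and 3.10 over those without region b counts. Sampling noise alone gives values near 1, and the libraries are separate pools. Spread beyond sampling noise raises this value more in deeper transcripts. Those without region b counts were shallower, with 0.254% to 0.293% of a library, so lower values for them do not mean closer agreement.

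The 957 transcripts were seen at very different depths. Their summed counts ran from 1 to 2920, with a median of 13 and an upper quartile of 64. There were 149 transcripts with a single count, 282 with 2 to 9, 261 with 10 to 49, 76 with 50 to 99 and 189 with 100 or more. The 10 deepest held 22.6% of all 95615 counts on these transcripts, and the 50 deepest held 52.6%. For a shallow transcript a count of 0 in region b says little. For the 189 deep ones, a count of 0 allows 3 region b counts over the 4 libraries, which is 1.05% of the counts of a transcript at the median of these 189, and 2.97% for the shallowest of them. Such limits describe the selection and hold only if no region b counts were left out of the deposited values. The limits, and the intervals below, cover counting error only.

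A region b count of 0 stood apart from small region b counts. Transcripts just inside the threshold, with a region b count of 0, had a median of 13 counts in the other regions. Of the 509 transcripts just outside it, with a region b count of 1, 125 had counts in the other regions, with a median of 2. At a region b count of 2 these were 75 of 363 transcripts, again with a median of 2. At least 100 counts outside region b were found in 189 transcripts with no region b count, in 2 with a region b count of 1 and in 1 with a count of 2. These values describe the selection and carry no test.

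Among all 5900 transcripts with at least 100 counts outside region b, 189 had none in region b, 15 had 1 to 10, and 5696 had over 10. Over 1000 region b counts were found in 3948 of them. Between 1 and 100 region b counts lay few transcripts, and the 189 at 0 stood apart from them. The median count outside region b was 285 for the 189 without region b counts and 222 for the others. Among the others it was 13.9% of the region b count at the median.

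**Figure D1:**
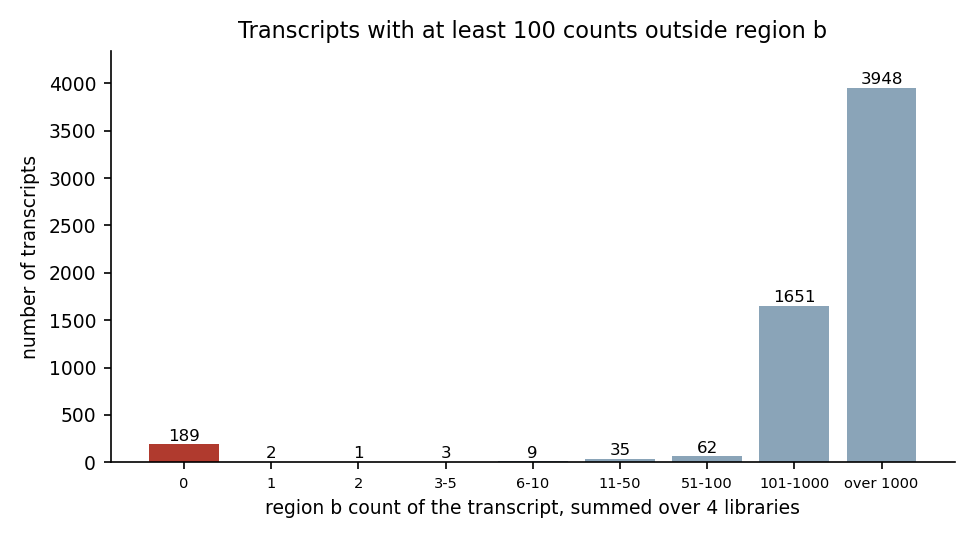
Number of transcripts (vertical axis) by region b count summed over the 4 libraries (horizontal axis, in classes of unequal width), for the 5900 transcripts with at least 100 counts outside region b. The bar at 0, in red, holds the 189 deep transcripts described here, and the classes from 1 to 10 hold 15 in all.

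The files carry no line for a region without a count, and an absent line was read as 0. A region without fragments cannot be told apart from a region whose line was left out.

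Region a held most of the counts on these transcripts. Of the 95615 counts, 83029 (86.8%) lay in region a, 3732 (3.90%) in region c and 8854 (9.26%) in region d. The single largest region was region a for 640 transcripts, region d for 216 and region c for 76, and 25 had a tie. Counts in region a alone were found in 358 transcripts, in region d alone in 145, in region c alone in 40, and in all 3 regions in 164.

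The split over regions depended on depth. Among transcripts with a single count, the count lay in region a for 71, in region d for 60 and in region c for 18. Among the 526 with at least 10 counts, region a was the largest for 79.8%, region d for 13.3% and region c for 5.89%. Among the 189 with at least 100 counts, region a was the largest for 178, region d for 7 and region c for 4. With each transcript given equal weight, the mean shares were 65% in region a, 9.72% in region c and 25.3% in region d, since the many shallow transcripts then count as much as the deep ones.

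**Figure D2:**
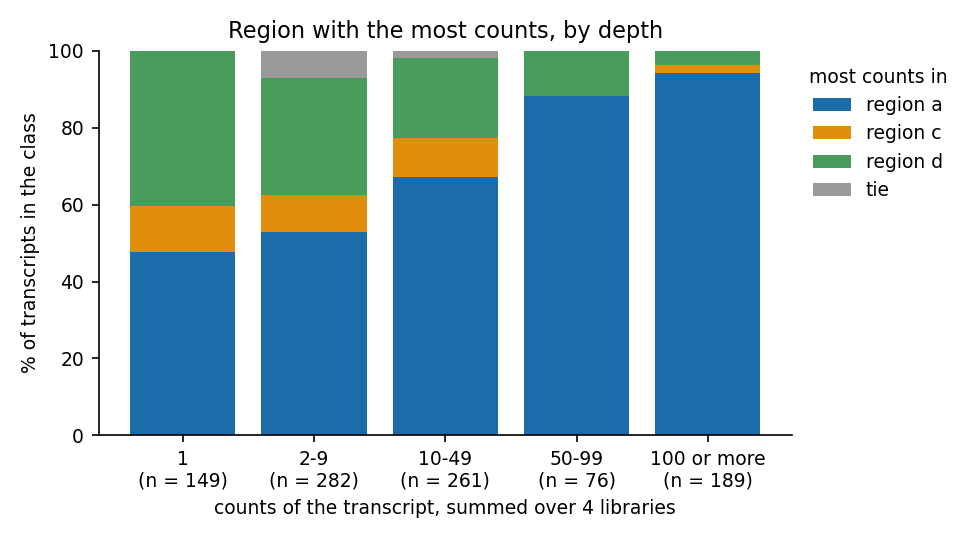
Share of transcripts without region b counts (vertical axis, percent) whose largest count lay in region a, c or d or was tied, by their counts summed over the 4 libraries (horizontal axis, with the number of transcripts in each class). Region a is the largest for 71 of 149 transcripts with 1 count and for 178 of 189 with 100 or more.

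The transcripts without region b counts took 3.21% of all region a counts, 4.53% of all region c counts and 5.49% of all region d counts. They were 4.13% of all transcripts, but some of the others had no counts outside region b, so the shares are not compared with that figure. Of a whole library the transcripts without region b counts took 0.284% and 0.293% in astrocyte 1 and 2, against 0.254% and 0.258% in neuron 1 and 2. Each 95% Wilson interval on these shares was at most 0.00773 percentage points wide.

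The region shares of the summed counts differed between the cell types without overlap. Region a held 88.3% and 89.3% of the counts on these transcripts in astrocyte 1 and 2, against 85.3% and 85% in neuron 1 and 2. Region d held 7.97% and 7.2% in the astrocyte libraries, against 10.1% and 11% in the neuron libraries. Region c held 3.70% and 3.55% in the astrocyte libraries, against 4.53% and 3.93% in the neuron libraries. In the same libraries, counts outside region b on all other transcripts lay in region a at 92.2% ± 0.132 for astrocytes and 91% ± 0.174 for neurons (SD over 2 libraries each). The gap in the region a share was 3.61 percentage points for the transcripts without region b counts and 1.21 for the others. The 2 transcripts with most region d counts, ENSMUST00000109623 and ENSMUST00000049385, held 3636 of the 8854 region d counts. Without them, a choice made after seeing the data, region a held 91.1% and 92% in the astrocyte libraries, against 89.4% and 89.9% in the neuron libraries, a gap of 1.90 percentage points. No test was made of these sums, since the transcripts were chosen with results known.

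The deepest transcript was ENSMUST00000019649, with 2869 of its 2920 counts in region a, 47 in region c and 4 in region d. Region a held 606 and 752 counts in astrocyte 1 and 2, against 530 and 981 in neuron 1 and 2, which is 97.7% to 99% of its counts in a library. It was chosen for a region b count of 0, which, if a true 0, limits region b to 0.103% of its counts. Its totals were 83.9 and 96.4 CPM (counts scaled to a common library total) in the astrocyte libraries, against 74.3 and 78.2 CPM in the neuron libraries. The groups did not overlap, yet the log2 fold change of neuron over astrocyte, -0.36 (SE 0.148), did not pass the test (edgeR adjusted p = 0.136). With 1 library left out the log2 fold change ran from -0.46 to -0.24, and no alternative with all 4 libraries passed.

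Of the 6 deepest transcripts, 5 had region a as their largest region, and in 4 of these both neuron libraries lay slightly above both astrocyte libraries. Over all tested transcripts, 40.2% had both neuron libraries above both astrocyte libraries in CPM. ENSMUST00000027232 had 2366 of 2384 counts in region a, with 62.5 and 59 CPM in astrocyte 1 and 2, against 68.8 and 75 CPM in neuron 1 and 2. ENSMUST00000007216 and ENSMUST00000090023 had identical counts in every region and library, 2305 in all, of which 2243 lay in region a, so they add 1 profile. They had 58.5 and 58.4 CPM in the astrocyte libraries, against 62.8 and 74.8 CPM in the neuron libraries. ENSMUST00000076587 had 2069 of 2075 counts in region a, with 53.2 and 52.6 CPM in the astrocyte libraries, against 58.8 and 65.8 CPM in the neuron libraries. All 4 had log2 fold changes of 0.12 and none passed the test (edgeR adjusted p from 0.592 to 0.632).

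Region d was the largest in the second deepest transcript, ENSMUST00000109623, which had 0 counts in regions a and b. Region d held 390 and 447 counts in astrocyte 1 and 2, against 475 and 1025 in neuron 1 and 2, and region c held 35 and 47, and 91 and 131. Its totals were 58.3 and 62 CPM in the astrocyte libraries, against 78.5 and 90.1 CPM in the neuron libraries. The groups did not overlap, and the log2 fold change of 0.37 (SE 0.147) did not pass the test (edgeR adjusted p = 0.129). With 1 library left out the log2 fold change ran from 0.29 to 0.44, and no alternative for its total with all 4 libraries passed. Region c took 8.24% and 9.51% of its counts in the astrocyte libraries, against 16.1% and 11.3% in the neuron libraries. With each region as a separate feature in the same kind of fit, its region c was higher in neuron samples, at a log2 fold change of 0.98 (edgeR adjusted p = 0.0396). It was the 1 region of the 295 tested regions of these transcripts that passed toward neurons, against 3.73% of all 28186 tested regions. Another 38 of the 295 passed toward astrocytes, against 11.8% of all tested regions.

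ENSMUST00000049385 had 1299 of its 1302 counts in region d, with 203 and 199 in astrocyte 1 and 2, against 274 and 623 in neuron 1 and 2. Its totals were 28 and 25 CPM in the astrocyte libraries, against 38.3 and 48.5 CPM in the neuron libraries, without overlap. The log2 fold change was 0.60 (SE 0.178), just short of the threshold (edgeR adjusted p = 0.0552). With library totals in place of TMM factors it was 0.72 (edgeR adjusted p = 0.0322), and with no filter on low counts it was 0.62 (edgeR adjusted p = 0.0393). DESeq2 did not call it (DESeq2 adjusted p = 0.098). With 1 library left out the log2 fold change ran from 0.44 to 0.74.

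ENSMUST00000181950 split its 328 counts between region c, with 171, and region d, with 157, and had none in region a. Region c held 48 and 36 counts in astrocyte 1 and 2, against 39 and 48 in neuron 1 and 2, and region d held 43 and 37, and 21 and 56. The region c share ran from 46.2% to 65%, and both extremes were neuron libraries. ENSMUST00000058407 had all of its 311 counts in region c, 56 and 51 in astrocyte 1 and 2, against 89 and 115 in neuron 1 and 2. In CPM these were 7.68 and 6.40 against 12.3 and 8.96, a log2 fold change of 0.46 that did not pass the test (edgeR adjusted p = 0.287). With 1 library left out the log2 fold change ran from 0.21 to 0.72, and no alternative with all 4 libraries passed.

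ENSMUST00000001304 was the deep transcript with the most region c counts beside region a counts. Region a held 137 and 122 counts in astrocyte 1 and 2, against 56 and 52 in neuron 1 and 2, and region c held 68 and 58, and 21 and 45. Region c took 32.9% and 32% of its counts in the astrocyte libraries, against 26.9% and 44.1% in the neuron libraries. The astrocyte values thus lay between the neuron values. Its totals of 28.4 and 22.7 CPM in the astrocyte libraries lay above the 10.8 and 7.95 CPM of the neuron libraries, and it was among the transcripts that passed the test below.

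**Figure D3:**
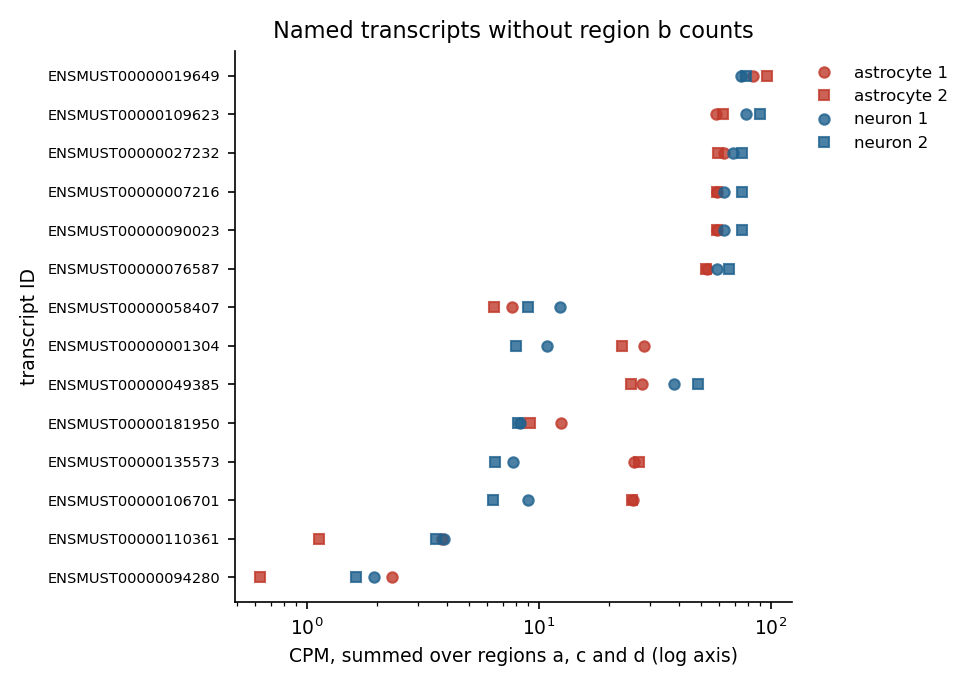
CPM of each named transcript without region b counts (horizontal axis, logarithmic) in the 4 libraries, with astrocyte libraries in red and neuron libraries in blue. ENSMUST00000135573, ENSMUST00000106701 and ENSMUST00000001304 show both astrocyte libraries to the right of both neuron libraries by over 2-fold.

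How many libraries held a count of a transcript followed its depth, which its summed count in part fixes. All 265 transcripts with at least 50 counts had counts in all 4 libraries, as did 484 of the 526 with at least 10. Among the 957, 505 were seen in 4 libraries, 107 in 3, 120 in 2 and 225 in 1. Those seen in 1 library had at most 5 counts, and 149 of the 225 had 1 count. They were spread over the libraries, with 50 and 51 in astrocyte 1 and 2, against 57 and 67 in neuron 1 and 2. Counts in astrocyte libraries alone were found in 116 transcripts, with at most 6 counts each, and in neuron libraries alone in 149, with at most 7. At this depth no presence in 1 cell type only was detectable.

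Across the 265 transcripts with at least 50 counts, which are no replicates of one another, Pearson r of log2 CPM was 0.948 (Spearman rho = 0.942) for the astrocyte pair and 0.926 (rho = 0.913) for the neuron pair. Across cell types it lay from 0.821 to 0.893. The SD of the log2 differences was 0.446 within astrocytes, 0.541 within neurons and 0.638 to 0.841 between cell types. For all 18819 tested transcripts the SDs within a cell type were smaller, 0.31 for astrocytes and 0.493 for neurons. Between cell types they were 0.656 to 0.855, which is not smaller. The sets were not matched for depth. A gap of over 1 on the log2 scale was found in 7 of the 265 between the astrocyte libraries and in 22 between the neuron libraries.

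**Figure D4:**
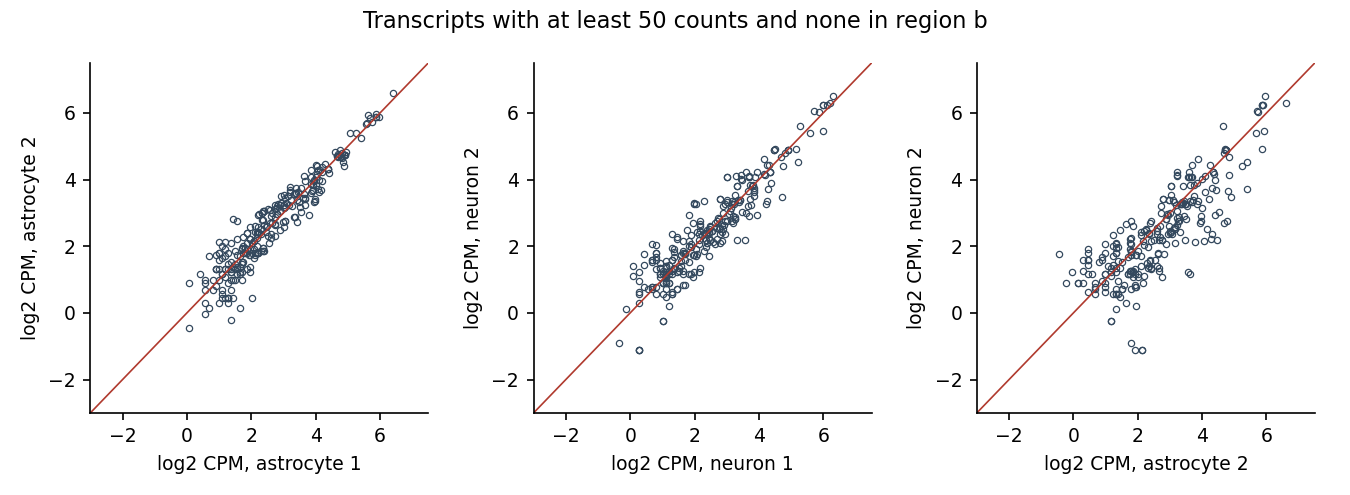
Log2 CPM of the 265 transcripts with at least 50 counts and none in region b, 1 point per transcript, for the astrocyte pair, the neuron pair and astrocyte 2 against neuron 2, with the line of equal values in red. Points lie closer to the line within a cell type (SD of the differences 0.446 and 0.541) than for astrocyte 2 against neuron 2 (0.841). That pair is the widest of those across cell types, and the narrowest, astrocyte 1 against neuron 1, is not drawn (0.638).

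The widest gaps within a cell type among the 265 lay between the astrocyte libraries. ENSMUST00000110361, with 111 counts in all, had 28 and 9 counts in astrocyte 1 and 2, against 28 and 46 in neuron 1 and 2. ENSMUST00000094280, with 57 counts in all, had 17 and 5 counts in the astrocyte libraries, against 14 and 21 in the neuron libraries. In both, astrocyte 2 was low and the other 3 libraries had similar CPM. Neither passed the test (edgeR adjusted p = 0.56 and 0.878).

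Some of the 957 had the same counts as others. There were 704 distinct profiles of counts over all regions and libraries, and 338 transcripts shared their profile with another of the 957. The largest such set held 27 transcripts with 1 count each, which any shallow transcripts can share. Among the 265 with at least 50 counts there were 255 distinct profiles, and 20 transcripts fell into 10 sets.

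Counts exactly identical to those of transcripts that do have region b counts were uncommon. Nearly identical counts were not sought, so how common sharing is was not tested. For example, ENSMUST00000152704 had 232 region a counts, and ENSMUST00000022163, with 20 region b counts, had 231. Of 235 transcripts with at least 50 region a counts, 29 had exactly the region a counts of another transcript in all 4 libraries, and for 3 of them that other transcript had region b counts. The largest region b counts of the partners of these 3 were 14, 27 and 1572. Of 201 with at least 10 counts in regions c and d together, 87 had exactly the counts of another transcript in both regions, and for 20 of them that transcript had region b counts. The largest region b count among the partners of each of these 20 ran from 1 to 6949, with a median of 103 over the 20. Most of these transcripts therefore had no partner of identical counts with region b counts, at the depths where identity could be read.

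The neuron to astrocyte comparison asked whether a transcript without region b counts had more footprints in one of the cell types. Of the 957, 289 passed the filter on low counts and could be tested, in a fit over all 18819 transcripts that passed. Higher in astrocyte samples were 39 of the 289 (13.5%), where the share over all tested transcripts was 12.9%. Higher in neuron samples were 0 of the 289, where the share over all tested transcripts was 4.24% (edgeR quasi-likelihood test, adjusted p under 0.05). The count toward astrocytes was near the background in this fit, and the count toward neurons was below it.

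At an unadjusted p under 0.05, 7 of the 289 were higher in neuron samples, against 12.7% of all tested, and 74 were higher in astrocyte samples, against 19.6% of all tested. DESeq2 called 28 higher in astrocyte samples (9.69%), all among the 39, against 11.4% of all tested, and 0 higher in neuron samples, against 3.63%. With a mean of at least 10 CPM required, a filter chosen after seeing the data, 18 of 74 (24.3%) were higher in astrocyte samples, against 13.2% of all tested, and 0 were higher in neuron samples, against 3.44%. In CPM, the groups did not overlap with astrocytes higher in 107 of the 289 (37%), against 25.6% of all tested, and with neurons higher in 51 (17.6%), against 40.2% of all tested.

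Fold changes of the tested transcripts lay mostly below 0, which is given as a description. The median log2 fold change of neuron over astrocyte was -0.30 over the 289 and 0.03 over all tested transcripts, and 205 of the 289 (70.9%) lay below 0, against 47.8%. Scaled by library totals alone, which moved the median of all tested transcripts to 0.15, the median of the 289 was -0.18 and 62.3% lay below 0, against 39.1% of all tested. Most other transcripts are counted mainly in region b and these mainly in region a. In a fit of region a counts alone, chosen after seeing the data, the median was -0.18 over 261 of the transcripts and 0.02 over all 9377 tested. There 35 of the 261 were higher in astrocyte samples, against 10.2% of all tested, and 0 were higher in neuron samples, against 4.15%.

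The fold changes differed by the region that held the counts. Of the 261 tested transcripts with most counts in region a, 194 lay below 0, with a median log2 fold change of -0.36, and 38 were higher in astrocyte samples. Of the 8 with most counts in region c, 6 lay below 0 and 1 was higher in astrocyte samples. Of the 20 with most counts in region d, 5 lay below 0, with a median of 0.28 and a range from -0.68 to 1.07, and 0 passed the test. Over all tested transcripts, whatever their region, 47.8% lay below 0. Of them, 12.9% were higher in astrocyte samples and 4.24% in neuron samples. Counts outside region b on all other transcripts also lay more in region d in neurons, at 6.06% against 5.03% for astrocytes. The difference between the sets by region was not tested.

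**Figure D5:**
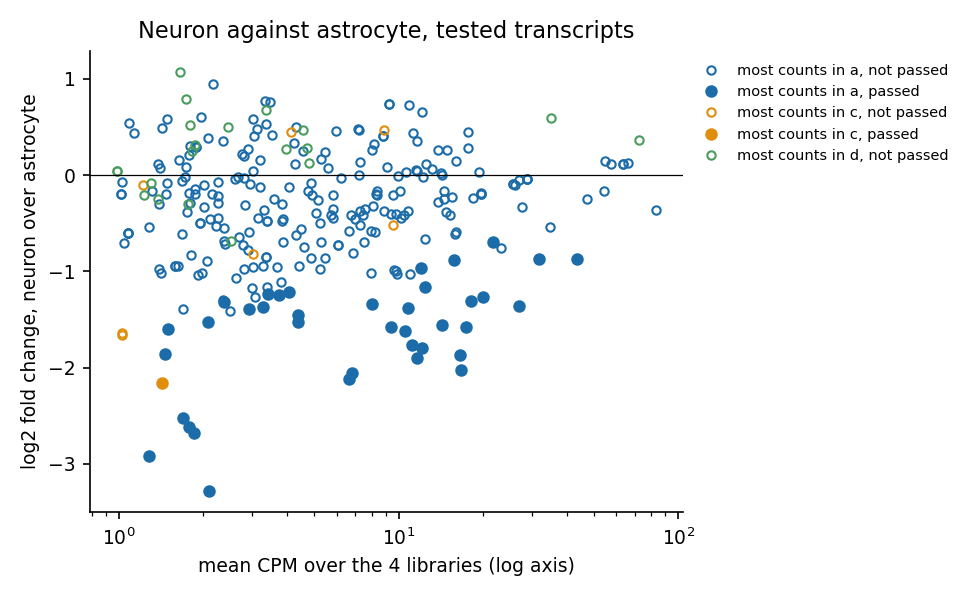
Log2 fold change of neuron over astrocyte (vertical axis) against mean CPM over the 4 libraries (horizontal axis, logarithmic) for the 289 tested transcripts without region b counts, coloured by the region with most counts and filled where the edgeR adjusted p was under 0.05. All 39 filled points lie below 0, 38 of them with most counts in region a and 1 with most counts in region c.

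The 39 transcripts higher in astrocyte samples had 40 to 1472 counts, with a median of 266, and region a held 95.7% of the counts at the median. Their log2 fold changes ran from -3.29 to -0.70. At least 2-fold changes were found in 34 of them and at least 4-fold changes in 9. The share of all tested transcripts at these folds is not given here. The largest change, in ENSMUST00000093196 (SE 0.497), rests on 65 counts in all, with log2 CPM of -0.36 and -0.89 in neuron 1 and 2. Of the 39, 9 passed the filter on low counts in both libraries of astrocytes but not of neurons. Large fold changes at such depth are therefore imprecise. Together they held 19.1% and 19.4% of the counts on transcripts without region b counts in astrocyte 1 and 2, against 10.6% and 8.28% in neuron 1 and 2, a gap that their selection fixes. All 39 had distinct profiles over all regions, but distinct profiles can be near copies. ENSMUST00000183044, ENSMUST00000183177 and ENSMUST00000171031 had 57, 55 and 52 region a counts. All of these had the same log2 CPM in neuron 1 (0.26) and in neuron 2 (-1.12). The 39 are therefore not 39 separate signals. Of the 23 with at least 10 counts in regions c and d together, 8, in 3 sets, had the c and d counts of another of the 23 in every library.

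The smallest adjusted p belonged to ENSMUST00000135573, with 532 of 542 counts in region a. It had 187 and 216 counts in astrocyte 1 and 2, against 56 and 83 in neuron 1 and 2. In CPM these were 25.6 and 27.1 against 7.77 and 6.47, so the astrocyte libraries lay well above both neuron libraries. The log2 fold change was -2.02 (SE 0.211, edgeR adjusted p = 0.00071), or 4.06-fold higher in astrocyte samples. Region a held 96.4% to 98.6% of its counts in every library.

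ENSMUST00000106701 followed, with 525 of 533 counts in region a and the other 8 in region c. It had 186 and 201 counts in astrocyte 1 and 2, against 65 and 81 in neuron 1 and 2, or 25.5 and 25.2 CPM against 9.02 and 6.31 CPM. The log2 fold change was -1.87 (SE 0.236, edgeR adjusted p = 0.00158). All 8 region c counts, 2 and 6, came from the astrocyte libraries. In neuron 2 a region c share of 0 of 81 counts has a 95% Wilson interval up to 4.53%, so a difference in region c was not detectable at this depth.

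The number of transcripts that passed moved with single libraries. Calls over all tested transcripts moved with them. Without astrocyte 1, 23 of 342 (6.73%) were higher in astrocyte samples, against 7.99% of all tested, and 0 in neuron samples, against 0.995%. Without astrocyte 2, these were 18 of 323 (5.57%), against 7.08%, and 0, against 0.867%. Without neuron 1, they were 86 of 340 (25.3%), against 24.6%, and 13 (3.82%), against 21.7%. Without neuron 2, they were 50 of 338 (14.8%), against 17.9%, and 3 (0.888%), against 15.1%. In these 4 fits the share called toward neurons was lower among transcripts without region b counts than over all tested. Each of these fits takes the spread of the remaining single library from the other cell type. Of the 289 tested, 28 passed the filter in both libraries of astrocytes but not of neurons and 18 in both of neurons but not of astrocytes. Among the 39, these were 9 and 0, and the other 30 passed it in all 4 libraries. In all, 224 of the 289 did so. The 668 transcripts that were not tested had at most 59 counts.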

How the data were processed

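Ribosome-protected fragments were measured in 2 neuron and 2 astrocyte libraries. The deposited values are whole-number counts per transcript region, with no header and no normalization visible. The tools, whose roles are not stated, were, per the submitters' processing notes, STAR 2.3.1z8, Bowtie2 2.2.2, Trimmomatic 0.32, FastQC 0.11.2, edgeR and bedtools. Not given in the sources used here are the strand setting, the build, the annotation, how fragments that match several transcripts were counted and what the region letters mark. If a fragment was counted for every transcript it fits, or for none, counts of overlapping transcripts are shared or lost.

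Absent regions were read as 0. Counts were summed over regions and tested per transcript by the quasi-likelihood F test of edgeR 4.0.16 (R 4.3.3), over all transcripts that passed filterByExpr (minimum count 10), with TMM factors, cell type as the only term and Benjamini-Hochberg adjustment at 0.05. A standard error is the absolute log2 fold change over the root of F. CPM values use library totals, and log2 CPM a prior count of 2. Library totals of 7210269 to 12833187 counts put the 3 counts that a count of 0 allows at 0.234 to 0.416 CPM. The test was tested on simulated counts. Alternatives included DESeq2 1.42.0.

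The transcripts and lists were chosen with earlier results of these data known. Named were the 6 deepest transcripts, the 3 with most counts in each of regions a, c and d, up to 2 called per direction by adjusted p, and the 2 with the widest gap within a group. Marker lists need gene names and were not used.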

Additional observations from a re-analysis of the deposited data

How the results depend on the processing

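The number of transcripts without region b counts was 957, and 526 with at least 10 counts. It lay between 927 and 949 with 1 library left out and was 962 with region b at up to 1% of the counts. With each transcript given equal weight, the mean shares were 65% in region a, 9.72% in region c and 25.3% in region d. With 1 library left out, region a held 86.1% to 87.8% of the summed counts, region c 3.75% to 4.02% and region d 8.32% to 9.93%. Without the 2 transcripts with most region d counts, region a held 90.6% and region d 5.69%. The share of a library, 0.289% in astrocyte and 0.256% in neuron samples, was 0.272% and 0.238% with 1 transcript per set of identical counts and 0.28% and 0.249% without the deepest transcript, as fewer transcripts enter. With 1 library left out it was 0.284% to 0.293% and 0.254% to 0.258%.

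Over all tested transcripts 3219 changed. Region a alone, which tests fewer transcripts, gave 1349, and leaving out 1 library gave 1523 to 8958. The 39 higher in astrocyte samples of 289 (13.5%, against 12.9% of all tested) became 18 of 74 (24.3%, against 13.2%) when a mean of 10 CPM or more was required, and 18 to 86 of 323 to 342 with 1 library left out. The 0 higher in neuron samples became 1 with library totals (8% of all tested), 1 with no filter (4.86%), 1 with each region as a feature (3.73%), and 0 to 13 with 1 library left out. The cause was not tested. The median log2 fold change of the tested transcripts without region b counts stayed below 0, from -0.392 to -0.177, in all 14 alternatives. Region a alone, the required mean of 10 CPM and leaving out those 2 transcripts were chosen after seeing the data.

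Of the 173 alternative values of the 14 named transcripts, 162 kept direction and side of the threshold. Another 9, all of transcripts not past it before, passed in the same direction. These were ENSMUST00000019649, ENSMUST00000109623 and ENSMUST00000049385 without neuron 1 and without neuron 2, ENSMUST00000058407 without neuron 2, and ENSMUST00000049385 with library totals and with no filter. Fits without a neuron library take the spread of the remaining neuron library from the astrocyte libraries. Calls over all tested transcripts also rose in them, so passing there is not particular to these transcripts. The remaining 2 of the 173 values changed sign. Without astrocyte 2 the log2 fold changes turned to -0.15 for ENSMUST00000110361 and -0.50 for ENSMUST00000094280, neither past the threshold before or after. Without astrocyte 1 they were 1.59 and 1.35. No label says that replicate numbers pair the samples, and libraries with the same number deviated from their group means with r = -0.082 (Spearman rho = -0.119, n = 18819 transcripts). With the replicate block there were 3416 calls in all and 46 of the 289 higher in astrocyte samples (15.9%, against 14% of all tested), 38 of them among the 39.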

Other observations

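A gap above 0, read here from counts of 1 or 2, was also found for region a. The minimum outside the region was 5000 counts here and 100 for region b, so the gaps are not compared in size. Only 26 transcripts had at least 5000 counts outside region b. Among the 1274 transcripts with at least 5000 counts outside region a, 42 had a region a count of 0 and 7 had 1 or 2. For regions c and d the low values ran on without such a gap. Among 1406 transcripts with at least 5000 counts outside region c, 285 had 0 and 263 had 1 or 2 region c counts. Among 1400 with at least 5000 counts outside region d, 198 had 0 and 181 had 1 or 2 region d counts.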
